A study of Homo sapiens with 8 samples.

Results

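The genes described here encode the AP-1 and early growth response transcription factors. They were taken from the count table by their names: FOS, FOSB, FOSL1, FOSL2, JUN, JUNB, JUND, ATF3, EGR1 and IER2, 10 of the 58735 genes listed. RNA-seq counts came from 8 libraries of cells labelled A549, a line established from a human lung adenocarcinoma. The EV group comprised 4 libraries of cells transduced with the lentiviral vector alone, and the KRT19 group 4 libraries of cells in which the lentivirus drove KRT19. Per the methods of the study, the lentivirus encoded Flag-tagged KRT19, and both groups were stable lines selected with puromycin, so the vector backbone and the selection were common to both. Nothing in the labels says whether the 4 libraries of a group came from separate cultures or whether a line was derived from 1 clone, so the p-values below measure only the spread between these libraries.

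AP-1 is a dimer of bZIP proteins. JUN proteins can pair with themselves or with FOS proteins, whereas FOS proteins need a JUN partner, and the dimer binds a short DNA element at many growth and invasion genes. FOS, FOSB, EGR1, ATF3 and IER2 are among the immediate early genes, and this list is not complete. Growth factors and stress switch such genes on within minutes, in part through serum response factor bound to CArG boxes, and their transcripts are short-lived. FOSL1, which encodes FRA1, is known to be sustained by ERK signalling in cells with an active RAS pathway, and FRA1 is common in invasive carcinoma cells.

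Depth and identity were examined first. Total counts lay between 14073065 and 17054364 per library, and KRT19 itself had 1 to 5 counts in EV and 4353 to 5147 in KRT19 libraries, so no library went against its group. The marker genes went partly against the named cell line. Of 11 markers of A549, 6 were above 1 CPM (read counts scaled to a common library size, with TMM), with NQO1 at 438.8 CPM and KRT18 at 314.4 CPM in EV libraries, while ALDH1A1 and EPCAM had at most 3 counts, GPX2 at most 6 and AKR1B10 at most 14 in any library. CDKN2A, CDKN2B and MTAP, which are deleted in A549, were at 103.5, 36.8 and 46.1 CPM with the empty vector and at 102.0, 35.0 and 47.5 CPM with KRT19. The cells are therefore called by their label only. Retina is named in the label text on extraction, but RCVRN had 0 counts in all 8 libraries, and the summed level of 8 retinal markers ranged from 1.65 to 2.05 CPM among EV libraries and 1.46 to 2.63 CPM among KRT19 libraries. Markers of stroma summed to at most 3.80 CPM, of blood cells to at most 0.362 CPM and of endothelium to at most 2.46 CPM. KRT19 replicate 3 stood apart from its group, since its counts gave a chi-square over degrees of freedom of 7.72 to 13.6 against the other KRT19 libraries and other pairs within a group gave 2.79 to 6.49. A trend with GC content and gene length accounted for 17.4% of the variance of its deviations across genes, against 0.180% to 13.3% in the other libraries.

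The sequence before the start of 9 of the 10 genes was found in the RefSeq promoter table (GRCh38.p14), and FOSL1 had no entry. The 250 bases before the start of JUNB, JUND and EGR1 are given 5′ to 3′, because JUNB was 1 of the 2 genes with an unadjusted p under 0.05 (none passed after adjustment), JUND had the single CRE and EGR1 the single pair of CArG boxes. Capitals mark the TATAA letters in JUNB (chr19:12791236-12791485, plus strand), a CRE and the TATAA letters in JUND (chr19:18281623-18281872, minus strand), and an EGR site followed by both CArG boxes in EGR1 (chr5:138465229-138465478, plus strand).
JUNB: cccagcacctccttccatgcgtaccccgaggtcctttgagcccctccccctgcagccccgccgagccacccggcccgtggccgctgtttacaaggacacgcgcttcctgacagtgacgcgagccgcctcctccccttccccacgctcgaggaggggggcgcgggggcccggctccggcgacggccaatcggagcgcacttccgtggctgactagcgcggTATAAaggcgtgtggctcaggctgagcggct
JUND: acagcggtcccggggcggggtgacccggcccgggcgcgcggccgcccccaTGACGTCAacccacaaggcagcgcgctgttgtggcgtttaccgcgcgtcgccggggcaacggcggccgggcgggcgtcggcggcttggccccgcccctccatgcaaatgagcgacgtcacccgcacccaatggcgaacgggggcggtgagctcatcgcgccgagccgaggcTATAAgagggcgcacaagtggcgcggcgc
EGR1: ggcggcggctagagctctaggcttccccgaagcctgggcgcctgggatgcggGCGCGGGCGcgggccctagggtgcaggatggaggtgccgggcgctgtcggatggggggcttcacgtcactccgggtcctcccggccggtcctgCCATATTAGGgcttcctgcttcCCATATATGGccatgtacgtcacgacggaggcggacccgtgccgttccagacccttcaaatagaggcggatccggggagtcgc

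The CArG boxes of EGR1 began at -105 and -83 from the RefSeq start, and 1.16% of all 35116 windows of this length held at least 1 CArG box. The CRE of JUND (letters TGACGTCA) began at -200, and 1.65% of all windows held one. The related letters TGACATCA or their reverse complement stood at -67 in JUN and at -123 in an ATF3 window, against 2.37% of all windows. TATAA on the sense strand was present in 5 of the 10 windows of these 9 genes (ATF3, FOS, FOSB, JUNB and JUND), against 13.6% of all windows. No window of the 9 genes held the AP-1 element TGANTCA, which 6.57% of all windows held, and the EGR site GCGNGGGCG was found in EGR1 alone, against 8.41%. All motifs but TATAA were searched on both strands and none of them overlapped another in the printed windows. By the gene spans used for counting, the windows of JUN and FOSL2 and an ATF3 window lay inside the gene. Those of FOS, FOSB and the other ATF3 window partly did. These are matches of letters in 1 window per RefSeq start, and binding was not measured.

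To compare the genes with each other, CPM was divided by the length of the gene model in kilobases. FOSL1 was by far the most abundant AP-1 transcript, at 208.1 CPM per kb on average and from 196.0 to 224.6 over the 8 libraries. JUND followed at 61.1 CPM per kb (57.0 to 64.9) and IER2 at 44.8 (41.6 to 49.6). JUNB at 30.4 (27.1 to 33.6) and JUN at 28.8 (26.8 to 31.0) could not be ordered, because their ranges overlapped. FOSL2 lay at 7.57 CPM per kb (6.74 to 8.07) and EGR1 at 4.05 (3.49 to 4.38). The lowest levels were those of ATF3 (1.83 to 2.26 CPM per kb) and FOS (1.37 to 1.99), whose ranges overlapped, and of FOSB (0.495 to 0.695). FOSL1 stood at percentile 98.96 of all 14621 genes tested for level per kb, and the percentiles were 93.2 for IER2, 89.5 for JUNB, 88.8 for JUN, 29.9 for FOS and 13 for FOSB. The gene models of ATF3 and FOSB join 11 and 13 transcripts, so a level per kb understates a gene that uses a short transcript.

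**Figure D1:**
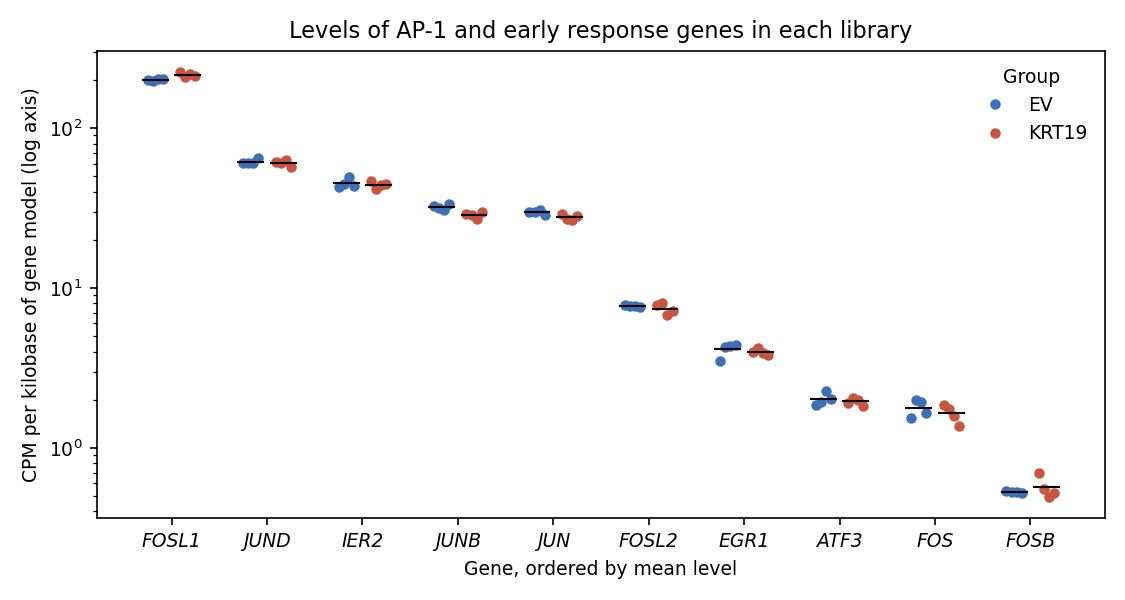
Level of each gene in CPM per kilobase of gene model on a log axis, with 1 point per library (4 EV and 4 KRT19) and a line at each group mean. FOSL1 lies between 196.0 and 224.6, above JUND at 57.0 to 64.9, and FOSB is lowest at 0.495 to 0.695.

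Within the Fos family the share of FOSL1 averaged 95.2% ± 0.136 (SD, n = 4) with the empty vector and 95.7% ± 0.359 (SD, n = 4) with KRT19. FOSL2 held 3.67% ± 0.0758 and 3.30% ± 0.287, and FOS held 0.846% ± 0.107 and 0.728% ± 0.0848 (SD, n = 4 each). FOS, the prototype of the family, thus made up less than FOSL2 in every library. Within the Jun family the same order of groups gave 49.9% ± 0.724 and 51.8% ± 1.88 for JUND, 25.9% ± 0.607 and 24.5% ± 1.22 for JUNB, and 24.2% ± 1.14 and 23.7% ± 0.777 for JUN (SD, n = 4 each). No share was separated between the groups.

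To determine whether the AP-1 genes differed with KRT19, all 10 genes were compared between the groups, and all 10 passed the filter on low counts. None had an adjusted p under 0.05 (edgeR, lowest adjusted p = 0.906), which 0.00684% of all tested genes had. Of the 10, 2 differed at an unadjusted p under 0.05, the threshold the study states, with FOSL1 higher and JUNB lower in KRT19 libraries. Over all tested genes 5.41% passed this threshold, 2.85% higher and 2.56% lower. The same 2 genes had no overlap between the groups, which held for 3.44% of all tested genes, 1.63% higher and 1.81% lower. In bulk RNA, fewer cells with a transcript and less of it per cell cannot be told apart. The log2 fold change was below 0 for 8 of the 10 genes with a median of -0.051, while 47.8% of all tested genes were below 0 with a median of 0.0051. Under the 18 alternatives 6 to 9 of the 10 were below 0, the lowest number without EV replicate 3 and the highest without KRT19 replicate 1. The fitted trend with GC content and length, KRT19 minus EV, was itself below 0 for all 10, from -0.039 for JUND to -0.0087 for FOSL1, and 7 were below 0 with it removed.

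**Figure D2:**
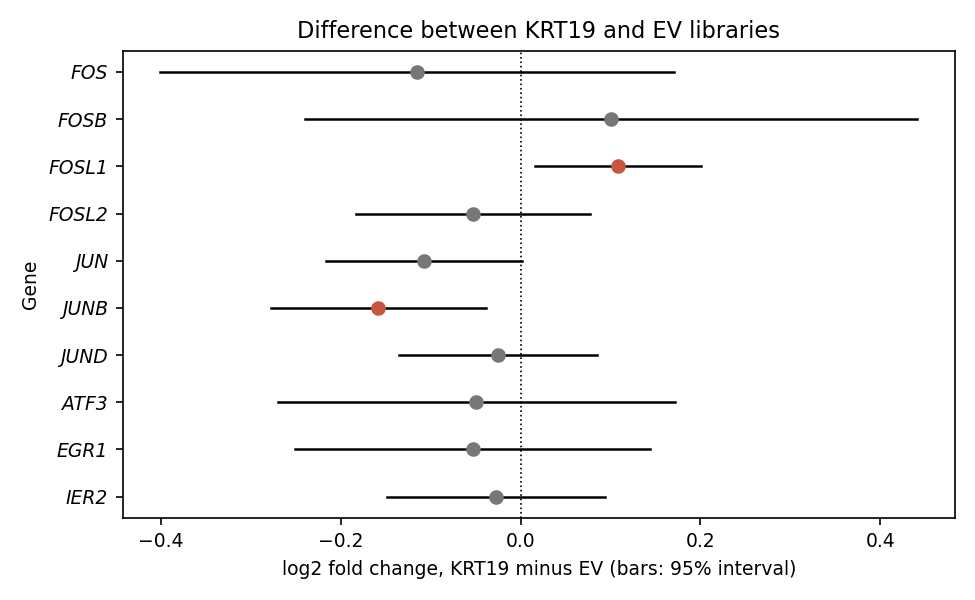
Log2 fold change of each gene, KRT19 minus EV, as points with 95% intervals from the edgeR fit over 8 libraries, with red points for an unadjusted p under 0.05. FOSL1 at 0.11 and JUNB at -0.16 have intervals that leave out 0, and the intervals of FOS and FOSB are the widest.

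FOSL1 (ENSG00000175592, minus strand of chromosome 11, 65892049 to 65900573, GRCh38) encodes FRA1, a FOS protein without the strong activation domain of FOS. FOSL1 was at 376.2, 369.9, 383.4 and 382.6 CPM in EV replicates 1 to 4 and at 423.9, 395.3, 411.5 and 399.4 CPM in KRT19 replicates 1 to 4. Every KRT19 library was above every EV library, with the widest margin in KRT19 replicate 1. The log2 fold change was 0.11 ± 0.044 (SE), an increase of 7.80% with a 95% interval of 1.12% to 14.9%. The unadjusted p was 0.0241, the adjusted p was 0.906 (edgeR) and the exact permutation p was 0.0286 (two-sided), the smallest that 4 libraries against 4 allow. Leaving out KRT19 replicate 1 gave an unadjusted p of 0.0756, and leaving out EV replicate 2 gave 0.0681.

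FOSL2 (chromosome 2, 28392448 to 28417312, plus strand) encodes FRA2, the nearest relative of FRA1. Its level ranged from 54.8 to 56.0 CPM among EV libraries and 48.2 to 57.7 CPM among KRT19 libraries. The KRT19 libraries thus spread to both sides of the EV libraries, and KRT19 replicate 3 was lowest. The log2 fold change was -0.053 ± 0.062 (SE, edgeR adjusted p = 0.946), and it was -0.0072 without KRT19 replicate 3 and -0.093 without KRT19 replicate 2.

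FOS (chromosome 14, 75278774 to 75282230, plus strand), the cellular counterpart of a viral oncogene, had 67 to 107 counts per library. FOS was at 4.98, 6.44, 6.26 and 5.35 CPM in EV replicates 1 to 4 and at 6.03, 5.68, 5.15 and 4.43 CPM in KRT19 replicates 1 to 4. The groups overlapped over most of their range. The change was -7.65% with a 95% interval of -24.2% to 12.6%, so a change of this size could not be told from none. Counting error alone gives a coefficient of variation of 10.6%, beside 12.2% within EV and 13.1% within KRT19 libraries. As each library was left out, the log2 fold change of FOS moved from -0.11 to between -0.18 (without KRT19 replicate 1) and -0.038 (without KRT19 replicate 4). FOSB (chromosome 19, 45467995 to 45475179, plus strand), which can also be made as a truncated form that lacks the activation domain, had 43 to 64 counts. FOSB ranged from 2.88 to 2.99 CPM among EV libraries and 2.75 to 3.86 CPM among KRT19 libraries, where KRT19 replicate 1 was highest. Its change was 7.23% with a 95% interval of -15.3% to 35.8%, and without KRT19 replicate 1 its log2 fold change was -0.018. FOSB lies in the span of ERCC1 on the other strand, which had 3309 to 4060 counts, but shared 0 exonic bases with it in GENCODE 29.

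JUNB (ENSG00000171223, plus strand of chromosome 19, 12791496 to 12793315) is a single-exon gene whose product activates transcription less strongly than JUN and can oppose it. JUNB was at 58.9, 57.2, 55.8 and 61.2 CPM in EV replicates 1 to 4 and at 53.2, 51.8, 49.3 and 54.6 CPM in KRT19 replicates 1 to 4. Every KRT19 library was below every EV library, and KRT19 replicate 3 was lowest. JUNB had a log2 fold change of -0.16 ± 0.057 (SE), equal to -10.4%, with a 95% interval of -17.5% to -2.63%. The unadjusted p was 0.0127, the adjusted p was 0.906 (edgeR) and the exact permutation p was 0.0286 (two-sided). The unadjusted p was 0.0511 without EV replicate 4, the single alternative of 18 that ended this call. With GC and length trends removed per library the groups of JUNB overlapped, while its log2 fold change was -0.14 with an unadjusted p of 0.0139. Of the exonic bases of JUNB, 14.2% were shared with exons of HOOK2 on the other strand, and reads of the 2 genes cannot be told apart there unless strand was used in counting. HOOK2 had 242 to 317 counts and a log2 fold change of -0.023 ± 0.080 (SE, edgeR adjusted p = 0.978).

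JUN (ENSG00000177606, minus strand of chromosome 1, 58780788 to 58784327), a single-exon gene that the JNK kinases activate at the protein level, was at 106.2, 105.2, 109.6 and 101.8 CPM in EV replicates 1 to 4. In KRT19 replicates 1 to 4 it was at 102.95, 95.002, 94.892 and 99.43 CPM. KRT19 replicate 1 was above EV replicate 4, and all other KRT19 libraries were below all EV libraries. The log2 fold change was -0.11 ± 0.052 (SE) with a 95% interval of -0.22 to 0.0015, and neither the unadjusted p of 0.0529 (edgeR) nor the exact permutation p of 0.0571 passed. It passed at an unadjusted p of 0.0277 without KRT19 replicate 1, 0.0487 without EV replicate 4, 0.0364 with upper-quartile normalization, 0.0448 with the stricter filter and 0.0403 with GC and length trends removed. In the first of these fits 8.29% of all tested genes passed, and in the last 8.18%, against 5.41% in the fit of all libraries as counted. The shares in the other fits, in the order given, were 4.21%, 5.44% and 5.33%. JUND (chromosome 19, 18279760 to 18281622, minus strand), which is known for steady expression in resting cells, ranged from 112.3 to 120.8 CPM among EV libraries and 106.2 to 118.2 CPM among KRT19 libraries. Its change was -1.74% with a 95% interval of -8.97% to 6.06%. JUND had a GC content above that of 99.6% of the tested genes, and its log2 fold change was -0.025 as counted and 0.015 with GC and length trends removed.

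**Figure D3:**
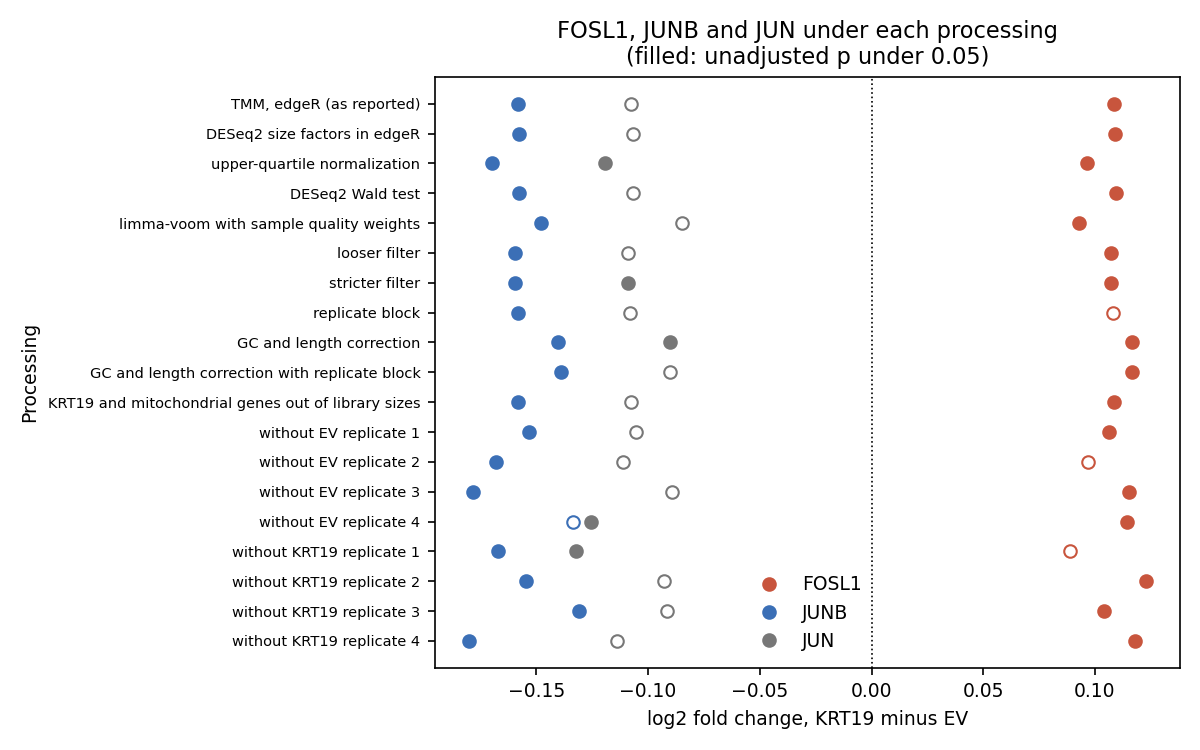
Log2 fold change of FOSL1, JUNB and JUN, KRT19 minus EV, under each processing, with filled points for an unadjusted p under 0.05 and open points otherwise. FOSL1 lies between 0.089 and 0.12 and JUNB between -0.18 and -0.13 under the 18 alternatives, and JUN passes under 5 of them.

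The summed levels of the families were set side by side, since FOS proteins depend on JUN partners. The summed Fos level was 209.3, 206.2, 213.3 and 212.6 CPM per kb in EV replicates 1 to 4 and 235.0, 219.8, 226.9 and 220.7 CPM per kb in KRT19 replicates 1 to 4. The summed Jun level was 123.2, 121.4, 122.4 and 127.2 CPM per kb in EV and 119.8, 115.7, 117.4 and 115.1 CPM per kb in KRT19 replicates 1 to 4. The ratio of Jun to Fos averaged 0.587 ± 0.0103 (SD, n = 4) with the empty vector and 0.519 ± 0.00695 (SD, n = 4) with KRT19, and every KRT19 library was below every EV library. The Fos sum rests on FOSL1 and the Jun sum includes JUNB, both separated on their own, so the ratio is not independent of them. No test is given for these sums because the genes were chosen with results of these libraries known.

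**Figure D4:**
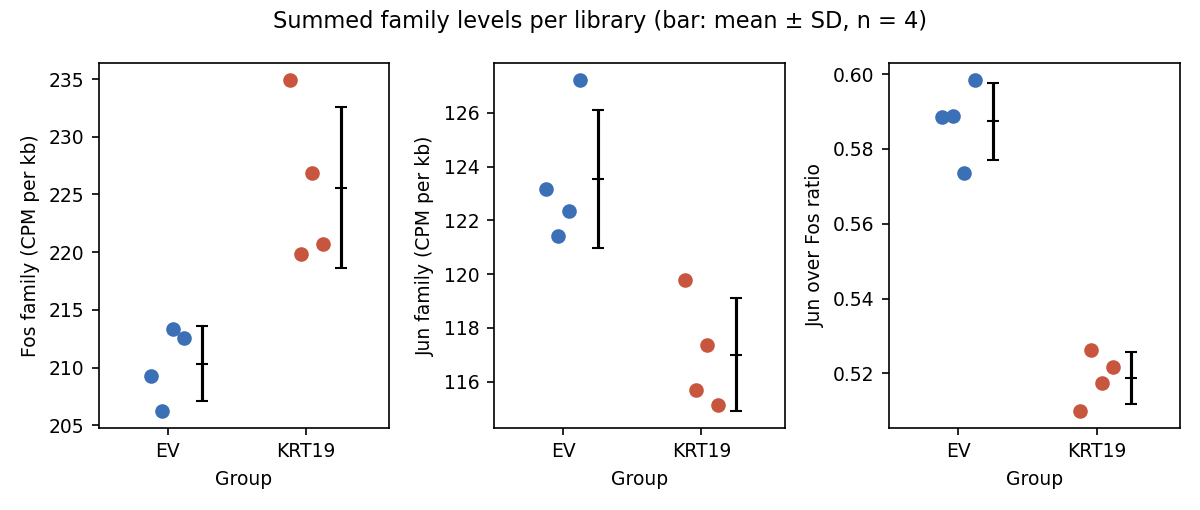
Summed level of FOS, FOSB, FOSL1 and FOSL2 (left) and of JUN, JUNB and JUND (middle) in CPM per kb, and their ratio (right), with 1 point per library and bars for the mean ± SD of 4 libraries; axes do not start at 0. The ratio lies between 0.574 and 0.599 in EV and between 0.510 and 0.526 in KRT19 libraries.

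ATF3 (chromosome 1, 212565334 to 212620777, plus strand), a bZIP factor that stress induces and that can repress transcription, ranged from 7.51 to 9.11 CPM among EV libraries and 7.40 to 8.31 CPM among KRT19 libraries. The groups overlapped, with a change of -3.36% and a 95% interval of -17.1% to 12.6%. EGR1 (chromosome 5, 138465490 to 138469315, plus strand) encodes a zinc finger factor that binds GC-rich sites. EGR1 was at 10.965, 13.477, 13.547 and 13.746 CPM in EV replicates 1 to 4 and at 12.537, 13.207, 12.278 and 11.958 CPM in KRT19 replicates 1 to 4. EV replicate 1 was the lowest of all and the other 3 EV libraries were the highest. The change was -3.61% with a 95% interval of -15.9% to 10.5%, and the log2 fold change was -0.053 with all libraries, -0.12 without EV replicate 1 (edgeR adjusted p = 0.892) and -0.023 without EV replicate 4. IER2 (chromosome 19, 13150415 to 13154908, plus strand), which encodes a nuclear protein, ranged from 130.7 to 152.4 CPM among EV libraries and 127.8 to 143.9 CPM among KRT19 libraries. Its change was -1.88% with a 95% interval of -9.80% to 6.73%. The antisense gene AC011446.2 shared 30.8% of the exonic bases of IER2 and had 0 counts in all libraries. As for JUNB, reads there cannot be assigned to 1 gene unless strand was used in counting. The 0 counts thus do not show that all reads there were counted for IER2.

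Genes around AP-1 were then examined in 9 lists, which hold 121 genes, of which 114 were tested. At an unadjusted p under 0.05 there were 7 of these, 3 higher and 4 lower in KRT19 libraries, beside 5.41% of all tested genes, and none had an adjusted p under 0.05 (edgeR, lowest adjusted p = 0.141). This count was 15 without KRT19 replicate 1 (beside 8.29% of all genes tested in that fit), 12 without EV replicate 2 (5.10%) and 11 without KRT19 replicate 3 (5.35%). It was 16 with limma-voom (9.14%) and 15 with GC and length trends removed (8.18%). Of the upstream genes, serum response factor with its ELK and MRTF partners (6 genes, median log2 fold change 0.012) and the ERK, JNK and p38 kinases (14 genes, -0.017) held no gene at an unadjusted p under 0.05. Among 16 feedback and output genes of ERK, DUSP6, the phosphatase that inactivates ERK, ranged from 51.9 to 56.6 CPM among EV libraries and 42.0 to 48.8 CPM among KRT19 libraries. The KRT19 libraries were all below the EV libraries, with a log2 fold change of -0.22 ± 0.061 (SE, edgeR adjusted p = 0.766), and the median of the 16 genes was -0.019.

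Of the other EGR genes, EGR2 and EGR4 were below the filter with at most 5 and 7 counts, and EGR3 averaged 0.802 CPM without and 0.605 CPM with KRT19. NAB2, a corepressor that binds EGR factors, ranged from 30.2 to 35.5 CPM among EV libraries and 26.0 to 33.5 CPM among KRT19 libraries, and the groups overlapped (log2 fold change -0.19 ± 0.079, SE, edgeR adjusted p = 0.906). Among 25 other immediate early genes tested, CCN2, a secreted matrix protein listed under its older name CTGF, ranged from 47.4 to 48.9 CPM among EV libraries and 52.4 to 56.8 CPM among KRT19 libraries, with a log2 fold change of 0.19 ± 0.054 (SE, edgeR adjusted p = 0.869). All KRT19 libraries were above all EV libraries for CCN2, and the median of the list was -0.012. NR4A1, a nuclear receptor induced along with FOS and EGR1, averaged 13.7 CPM without and 13.4 CPM with KRT19, and ZFP36, which speeds the decay of AU-rich transcripts, was at 42.9 and 42.4 CPM. The other bZIP partners (11 tested, median 0.0099) held no gene at an unadjusted p under 0.05.

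Of 18 tested genes with known AP-1 dependence, 2 were lower at an unadjusted p under 0.05 and none was higher, beside 2.56% lower and 2.85% higher over all tested genes. MMP1, a collagenase whose promoter is a classical AP-1 target, ranged from 12.3 to 19.4 CPM among EV libraries and 8.71 to 9.95 CPM among KRT19 libraries, with a log2 fold change of -0.73 ± 0.13 (SE, edgeR adjusted p = 0.141). HMOX1, the heme oxygenase induced by oxidative stress, ranged from 54.4 to 59.6 CPM among EV libraries and 41.2 to 54.7 CPM among KRT19 libraries, with a log2 fold change of -0.27 ± 0.079 (SE, edgeR adjusted p = 0.869). The groups were separated for MMP1 but overlapped for HMOX1. The median of the 18 genes was -0.026. Heat shock genes, which respond to handling, had a median log2 fold change of 0.076 over 12 genes, with 2 genes higher at an unadjusted p under 0.05, beside 2.85% of all tested genes. The chaperone HSP90AA1 ranged from 2899 to 3349 CPM among EV libraries and 3425 to 4518 CPM among KRT19 libraries (edgeR adjusted p = 0.869), and the mitochondrial chaperonin HSPE1 at 64.0 to 66.2 and 66.1 to 75.2 CPM. The part of handling stress in the values of the early response genes was not tested. RNA decay and protein turnover factors (9 tested, median 0.0043) held no gene at an unadjusted p under 0.05. Over the 9 lists, 7 of the 114 tested genes had no overlap between the groups, beside 3.44% of all tested genes. Of these, 3 did not pass that threshold and were chosen after their values were seen. They were the AP-1 target CD44, a hyaluronan receptor, with a log2 fold change of -0.087, the chaperone HSP90AB1 with 0.062 and KHSRP, an RNA-binding protein that promotes decay, with 0.083 (edgeR adjusted p = 0.906 for each).

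**Figure D5:**
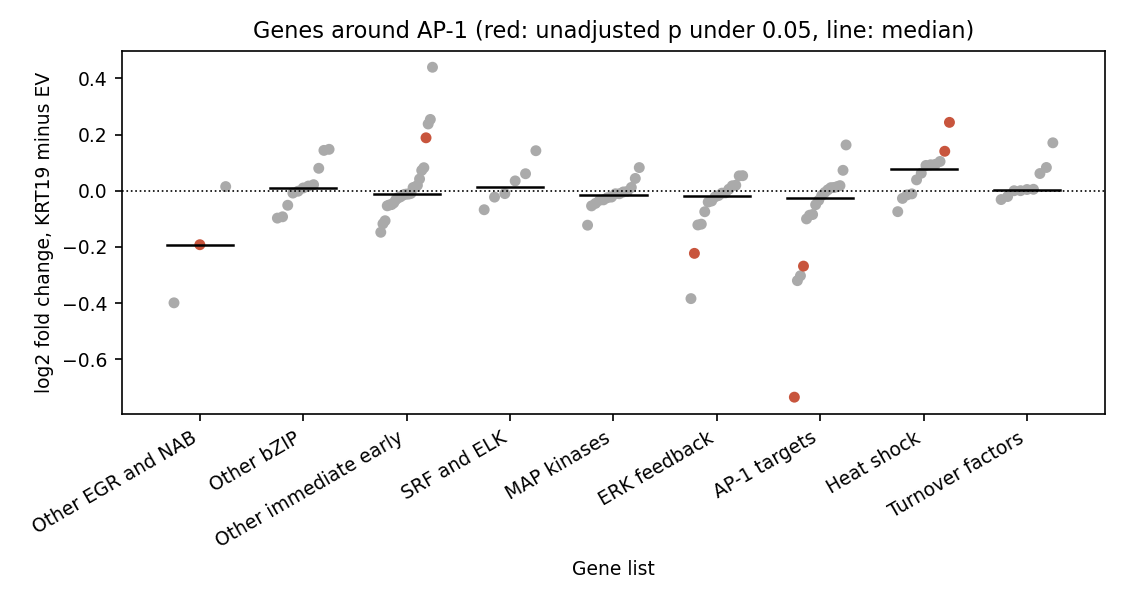
Log2 fold change, KRT19 minus EV, of each tested gene in 9 lists around AP-1, with red points for an unadjusted p under 0.05 and a line at the median of each list. MMP1 at -0.73 is the lowest point, and the medians of all lists but that of 3 EGR and NAB genes lie between -0.026 and 0.076.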

How the data were processed

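Values are raw counts as the authors deposited them, not normalized, for 4 EV and 4 KRT19 libraries, with a gene length in bases that was used for levels per kb. The submitters' processing notes name Bowtie 0.12.2, featureCounts 1.5.0-p3, DESeq2 and hg38 without their roles. Use of strand and treatment of multi-mapped reads were not given in the sources used here. Sample titles supplied the group and the replicate number.

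Genes were kept by filterByExpr (14621 genes, with 99.84% or more of every library), scaled by TMM and compared with the quasi-likelihood test of edgeR 4.0.16 in R 4.3.3, with a model of the group. P-values were two-sided and adjusted by the Benjamini-Hochberg method over all tested genes, with a threshold of 0.05. SE was obtained as the absolute log2 fold change over the root of F, and 95% intervals use the degrees of freedom of that test. Log2 CPM used a prior count of 2. Exact permutation tests ran over 70 assignments of the libraries. Genes named were the 10 members, KRT19, up to 4 genes per list with the smallest unadjusted p under 0.05, and the nearest 3 genes by pattern. NR4A1, ZFP36, NQO1 and other markers and list genes given without a test were picked for their role, and HOOK2, ERCC1 and AC011446.2 for their position. The members and the lists were chosen with earlier results of these data known. Alternatives were DESeq2 1.42.0 (size factors and Wald test), upper-quartile normalization, limma-voom (limma 3.58.1) with weights per library, a looser filter (total count of 1 or more), a stricter filter (at least 5 CPM in 4 libraries), a replicate block, removal of GC and length trends per library (splines with 5 degrees of freedom, alone and with that block), library sizes without KRT19 and mitochondrial genes, and leaving out each library. The scripts were tested on simulated counts. All pairs of replicates differed by more than sampling noise.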

Additional observations from a re-analysis of the deposited data

Results flagged for a closer look

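In 22 groups of 4 libraries (the 10 genes and KRT19, in 2 groups each), a library was singled out where its gap to the nearest other library, as a share of the range of its group, exceeded Dixon's 95% critical value for 4 values, which chance exceeds in about 1 of 20 groups. This happened 3 times, where chance gives about 1.1. For EGR1 this was EV replicate 1, whose log2 CPM was 3.47 where the rest of its group had 3.77 to 3.79 (gap of 0.912 of the range). For JUND it was EV replicate 4, whose log2 CPM of 6.92 lay above 6.81 to 6.83 (0.881). The KRT19 transcript itself was at a log2 CPM of 8.17 in KRT19 replicate 3, below 8.27 to 8.28 in its group (0.949).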

How the results depend on the processing

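None of the 10 genes had an adjusted p under 0.05 in any of the 18 alternatives, and KRT19 did in all 18, with log2 fold changes of 10.52 to 11.17. At an unadjusted p under 0.05 there were 2 of the 10 genes, and 1 to 3 under the alternatives: 1 with the replicate block (JUNB), where FOSL1 had a log2 fold change of 0.11 and an unadjusted p of 0.0851 (edgeR), and 1 to 2 when each library was left out (1 without EV replicate 2). Libraries that share a number were not treated as pairs, since their deviations from the group means correlated at -0.111, -0.0239, -0.159 and 0.0567. Every sign of FOSL1, FOSL2, FOS, JUN, JUNB and EGR1 was kept in the 18 alternatives. JUND reversed to 0.015 with GC and length trends removed and to 0.014 with this and the replicate block. When each library was left out, the log2 fold change ranged from -0.048 to 0.0027 for JUND (reversed without KRT19 replicate 4), from -0.018 to 0.16 for FOSB (without KRT19 replicate 1), from -0.084 to 0.0096 for ATF3 (without EV replicate 3) and from -0.055 to 0.020 for IER2 (without EV replicate 3 and, at 0.0018, without KRT19 replicate 2). The list genes at an unadjusted p under 0.05 numbered 7, against 16 with limma-voom, 15 with GC and length trends removed, and 6 to 15 when each library was left out (12 without EV replicate 2, 15 without KRT19 replicate 1 and 11 without KRT19 replicate 3). Over all genes the number was 791, against 451 with the replicate block, 1196 with GC and length trends removed, 1337 with limma-voom, 1559 with the looser filter and 622 to 1229 when each library was left out (1229 without KRT19 replicate 1). The cause was not tested. With GC and length trends removed, FOSL1 and JUN were the 2 genes with no overlap between the groups, in place of FOSL1 and JUNB. Over all tested genes, 5.06% had no overlap with these trends removed, against 3.44% without that step. The difference in the ratio of Jun to Fos lay between -0.073 and -0.065 when each library was left out. Leaving KRT19 and mitochondrial genes out of library sizes changed no count given here. FOSB was below the stricter filter and has no value there. FOS, FOSB and ATF3 had the fewest counts of the 10 genes, 43 to 150 per library.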

Other observations

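The SD of log2 CPM within groups was 0.036 for FOSL1, smaller than that of 98.4% of the tested genes, and 0.051 for JUN, 0.057 for JUND, 0.060 for JUNB and 0.085 for IER2, against a median of 0.12 over all tested genes, whatever their level. FOS was at 0.18 and EGR1 at 0.12. KRT19 replicate 3 was the lowest library for 4 of the 10 genes and KRT19 replicate 4 for 3, and no gene was highest in either. The same shares over all tested genes were not determined. KRT19 replicate 3 also had the largest trend with GC content and length (17.4%), whose part in this count was not tested.

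Genes were also ranked by how closely they followed a member over the 8 libraries, as the mean absolute difference of log2 CPM after each gene was centred, among 10812 genes with a mean of at least 5 CPM. For FOS, whose own mean deviation was 0.145, the nearest genes were IFT43 (0.0551), JDP2 (0.0588), a bZIP protein that binds AP-1 elements, and LRCH1 (0.0605). For EGR1 (own deviation 0.0886) they were BRSK2 (0.0269), SHF (0.0308) and SAP30 (0.0351). For JUN (0.0582) they were SMIM29 (0.0201), CUTA (0.0228) and TNIK (0.0249), and for FOSL1 (0.0539) they were PAX8-AS1 (0.0205), MAP2K3 (0.0209), a kinase that activates p38, and SUSD6 (0.0224). With 8 libraries and this many genes, near matches arise without any relation, so these are given as a description.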
